A study of Homo sapiens with 12 samples.

Results

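The cells compared here were HCT116, a human colorectal carcinoma line, in which the Argonaute gene AGO2 had been knocked out and wild-type AGO2 then given back. The 3 libraries of the restored line (FH-WT, knockout cells carrying AGO2 with an FH tag) were set against 3 libraries of the parental line, which never lost AGO2. Every gene of the deposited comparison was taken, 15074 of 15074 in the series, in 6 of its 12 libraries. The other 6 libraries were the AGO2 knockout line without a transgene and the knockout line carrying AGO2 with the mutation named 5xA (FH-5xA). FH-WT therefore differs from parental both in having gone through the knockout and in carrying the tagged protein, while all 4 lines share the HCT116 background. The study asked how the transcriptome of cells with wild-type or 5xA AGO2 differs, with knockout and parental cells as controls. Per the labels, each line was plated as 3 wells of 500000 cells and taken after 48 h for sequencing of rRNA-depleted RNA in strand-preserving libraries. Each group is a single line, so a p-value reflects how wells of one line vary, which may be technical, and not the spread between lines made independently.

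AGO2 binds microRNAs and uses their seed, the bases near the 5′ end, to find partly complementary sites in the 3′ untranslated regions of mRNAs. GW182 proteins of the TNRC6 family then bind AGO2 and bring in the CCR4-NOT deadenylase, so that a targeted mRNA is less translated and decays faster. Casein kinase 1 alpha phosphorylates a serine-rich cluster in AGO2, and a phosphatase made of PPP6C and the scaffold ANKRD52 removes the phosphates, which lets AGO2 move between targets. In colon epithelium the miR-200 family is known for holding down ZEB1, a repressor of epithelial genes, and the miR-17 family for holding down CDKN1A.

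For each gene the authors' deposited table gives the log2 fold change of FH-WT over parental, the mean expression over the libraries as log2 CPM (reads of a gene scaled to the library total), and a Benjamini-Hochberg false discovery rate (FDR) from edgeR's likelihood ratio test. All fold changes and FDR values that follow come from the authors' deposited tables. A gene is called here when its FDR is under 0.05. The ± after a log2 fold change is a standard error (SE) derived from the deposited fold change and test score. Values per library and depths were not analysed here, so levels are group levels in CPM, fitted from the deposited mean and fold changes, without an SD.

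The mature microRNAs of the 8 families whose targets are followed below are shown from RefSeq (GRCh38.p14), 5′ to 3′, with the seed (bases 2 to 8) in capitals. The target lists hold genes known as targets of these families, and each of the 8 families has a seed of its own. Not every listed gene has a seed match in the 3′ untranslated region searched here. Of genes searched, a match was found in 15 of 21 for let-7, 22 of 22 for miR-17, 15 of 16 for miR-19 and 15 of 18 for miR-200. It was found in 15 of 21 for miR-21, 18 of 18 for miR-15/16, 16 of 17 for miR-29 and 11 of 17 for miR-34.
let-7a-5p: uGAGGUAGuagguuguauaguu
miR-17-5p: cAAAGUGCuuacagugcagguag
miR-19b-3p: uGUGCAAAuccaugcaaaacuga
miR-200b-3p: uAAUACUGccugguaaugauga
miR-21-5p: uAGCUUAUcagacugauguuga
miR-16-5p: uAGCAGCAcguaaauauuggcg
miR-29a-3p: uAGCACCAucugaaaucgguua
miR-34a-5p: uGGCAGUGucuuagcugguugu

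Full-length seed matches in the 3′ untranslated region (UTR) of listed targets that the comparison called are shown next, in the RNA sense as DNA letters from GENCODE 29 transcripts on GRCh38. The 8 bases in capitals, known as an 8mer, are the complement of the seed followed by an A, and the sites belong to targets whose values are given later. Of 78 listed targets with such a site available here, 32 rose, 12 fell and 34 were not called, and EPHA4 is shown for those that fell. Over all tested genes 18.3% were higher and 16.1% lower. The target lists were chosen with earlier results of these data known, so the tally is a description only. ZEB1 holds 3 such sites for miR-200, and one of them lies at chr10:31527623-31527650 on the plus strand. The F3 site for miR-17 is at chr1:94529546-94529573 on the minus strand, the BCL2L11 site for miR-17 at chr2:111166220-111166247 on the plus strand, the FAS site for let-7 at chr10:89014994-89015021 on the plus strand, the LAMC1 site for miR-29 at chr1:183144243-183144270 on the plus strand, and the EPHA4 site for miR-17 at chr2:221425960-221425987 on the minus strand.
ZEB1 site: tttatcttatCAGTATTAtcactcttat
F3 site: tttacaatctGCACTTTAactgacttaa
BCL2L11 site: cctgactagaGCACTTTActctgtttcc
FAS site: aaataaggctCTACCTCAaagacctttg
LAMC1 site: tctgacacacTGGTGCTAttaattattt
EPHA4 site: cctcatccatGCACTTTAattgaagaac

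Giving wild-type AGO2 back left a large part of the transcriptome different from parental. Of 15074 genes, 5180 (34.4%) were called, 2755 higher (18.3%) and 2425 lower (16.1%) in FH-WT. Most of these differences were small: the median absolute log2 fold change was 0.48 among called genes, 582 of them differed by 1.2-fold or less, and 627 genes (4.16% of all tested) differed by at least 2-fold, 366 higher (2.43%) and 261 lower (1.73%). At least 4-fold differences were found for 49 higher and 36 lower genes. Knockout against parental, which shares the 3 parental libraries, had 44.4% of genes called (23.2% higher, 21.2% lower). FH-WT against knockout, the test of the difference between the restored and the knockout line, had 10.1% called (4.21% higher, 5.85% lower). The test used sets how far the count reaches: an F distribution with 1 and 8 degrees of freedom in place of the deposited chi-square one left 3195 genes, and a test against a minimum change of 1.2-fold left 1602. Mean expression ran between -0.95 and 12.96 log2 CPM, and the median SE was 0.28 below a mean of 1 log2 CPM and 0.09 from a mean of 6 upward, so low genes needed larger changes to be called.

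**Figure D1:**
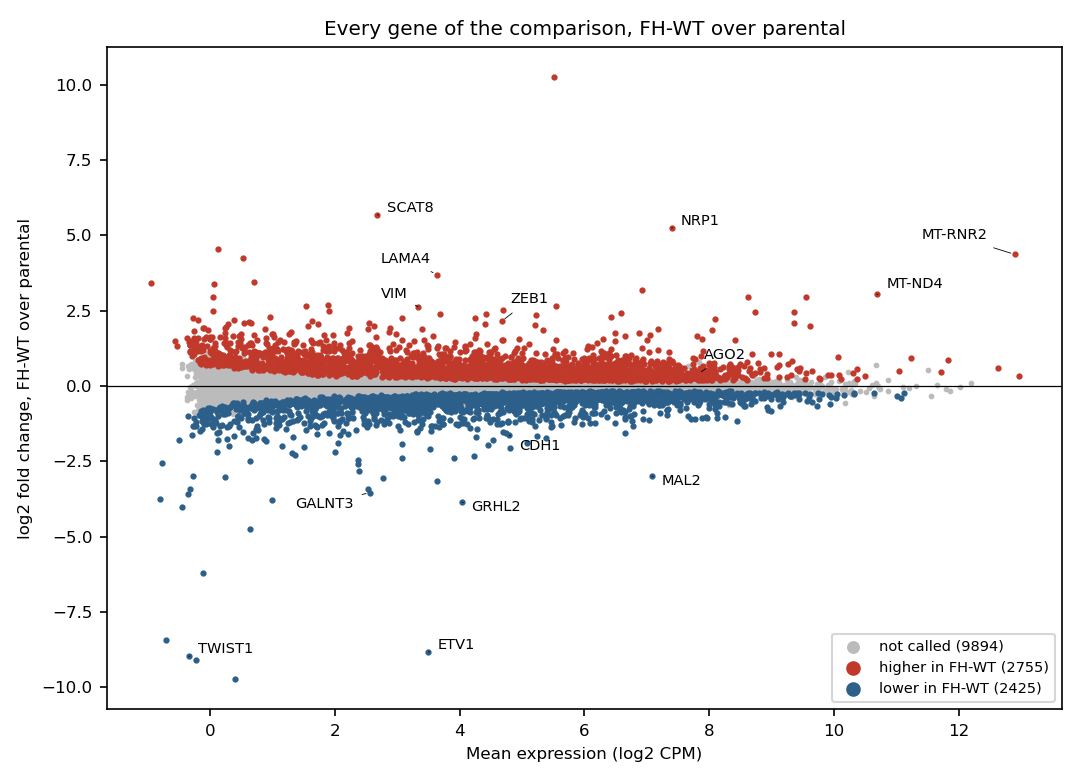
Log2 fold change of FH-WT over parental for each of the 15074 genes (vertical axis) against mean expression in log2 CPM (horizontal axis); red points are called higher, blue points called lower and grey points not called, at an FDR under 0.05. NRP1 stands at 5.25 and GRHL2 at -3.86 among well-expressed genes, AGO2 lies at 0.40, and the mitochondrial MT-RNR2 stands far right at 4.37.

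On chromosome 7 the fold change went with position. In its first 50 Mb the median log2 fold change was -0.86 over 226 genes, of which 172 were lower and 7 higher by call. Past 70 Mb the median was 0.51 over 454 genes, of which 330 were higher and 11 lower. Over the 14328 genes elsewhere the median was -0.01. Knockout over parental gave medians of -0.90 and 0.49 for the same blocks and FH-WT over knockout 0.04 and 0.01, so the block medians differed little between the restored and the knockout line. Of the other 10 Mb stretches with at least 20 genes, the one furthest from 0 lay on chromosome 6 (20000001-30000000, which holds the histone genes), with a median of -0.34 over 84 genes. Genes of chromosome 7 that are named below are marked as such with this block shift in mind, and the part of the shift in each of them was not tested. Without chromosome 7, 4559 genes were called.

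**Figure D2:**
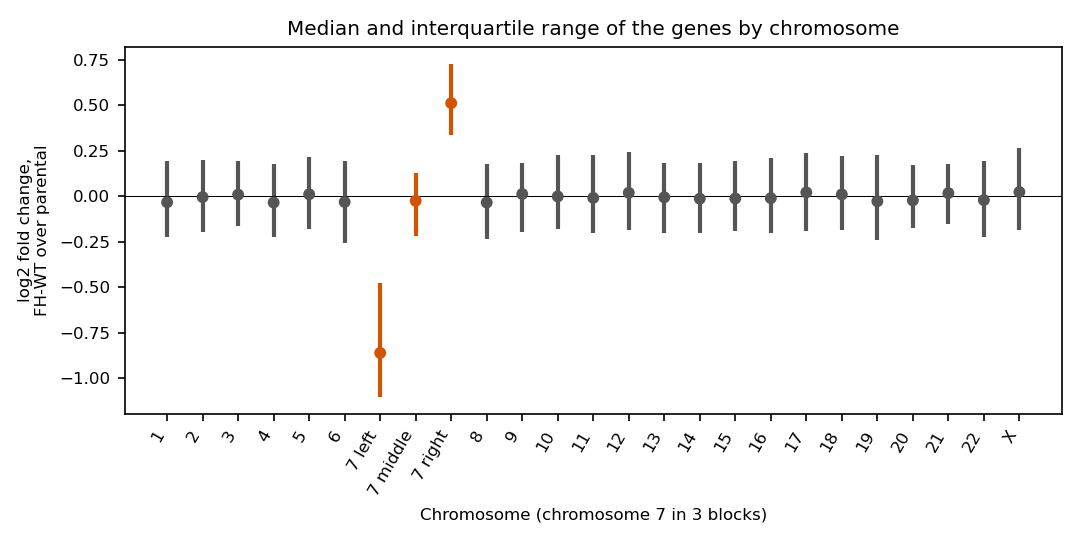
Median (point) and interquartile range (bar) of the log2 fold change of FH-WT over parental for the genes of each chromosome, with chromosome 7 divided at 50 and 70 Mb. The left block of chromosome 7 lies at -0.86 and the right block at 0.51, while the middle of chromosome 7 lies at -0.03 and chromosomes 1 to 22 and X, other than 7, lie between -0.03 and 0.02.

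AGO2 itself, at chr8:140520156-140635619, was the check of the lines. Its fitted level was 270 CPM in FH-WT, 161 CPM in knockout and 205 CPM in parental cells. It rose by a log2 fold change of 0.40 ± 0.07 in FH-WT over parental (FDR 6.78e-08), against -0.35 in knockout over parental and 0.75 in FH-WT over knockout, all 3 called. AGO2 RNA was thus highest in the restored line and lowest in the knockout line, where it was still well detected, and gene-level values do not separate transgene from endogenous transcript or show protein. The excess over parental was not called against a minimum change of 1.2-fold.

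The partners of AGO2 were mostly at or above their parental level. Of 21 measured genes of the microRNA pathway, 8 rose, none fell and 13 were not called, with a median log2 fold change of 0.13. ANKRD52, the scaffold of the AGO2 phosphatase, rose most, to a fitted 53.5 CPM in FH-WT and 66.4 CPM in knockout, against 29.9 CPM in parental cells (0.84 ± 0.14, FDR 1.21e-08). All 3 GW182 genes rose: TNRC6C by 0.68 ± 0.12, TNRC6B by 0.36 ± 0.08 and TNRC6A by 0.21 ± 0.08 (FDR 3.42e-07, 3.38e-05 and 0.0305). AGO3, a close relative of AGO2, rose by 0.31 ± 0.07 (FDR 8.09e-05), and so did the casein kinases CSNK1D (0.35) and CSNK1E (0.25). The F distribution left 6 of the 8 rises, without TNRC6A and CSNK1E. The minimum change of 1.2-fold left 2, ANKRD52 and TNRC6C.

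Among other parts of the same machinery, DICER1, AGO4 and AGO1 were called in knockout over parental and not in FH-WT over parental. DICER1, the nuclease that cuts microRNA precursors, was at 207 CPM in FH-WT, 276 CPM in knockout and 188 CPM in parental cells. Its log2 fold change was 0.13 ± 0.08 in FH-WT over parental (FDR 0.187), 0.55 in knockout over parental and -0.42 in FH-WT over knockout, and the last 2 were called. AGO4 had 0.11 ± 0.11 in FH-WT (FDR 0.479) beside 0.59 in knockout, and AGO1 had -0.02 ± 0.08 (FDR 0.904) beside 0.26 in knockout, with FH-WT below knockout by call for both (-0.48 and -0.27). For these 3 genes the test of FH-WT over knockout thus gave a call of its own. PPP6C, the catalytic subunit of the AGO2 phosphatase, had 0.16 ± 0.09 (FDR 0.155) beside 0.35 in knockout, where it was called. CSNK1A1, the AGO2 kinase, had 0.04 ± 0.07 (FDR 0.688) beside -0.06 in knockout, neither called. Of 27 measured mRNA decay factors, 9 rose and 3 fell, with a median of 0.08. TOB1 (0.72 ± 0.12) and TOB2 (0.49 ± 0.08), adaptors that recruit the deadenylase, rose with CNOT4, a ubiquitin ligase of the complex on the right block of chromosome 7 (0.72 ± 0.12). PAN2, a poly(A) nuclease, fell by 0.62 ± 0.11.

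The target lists of the 8 microRNA families had median log2 fold changes between 0.01 and 0.30 in FH-WT over parental. All but the miR-200 list also held genes called lower. The miR-17 list had 9 of 22 measured genes higher and 3 lower, with a median log2 fold change of 0.11, and 13 higher and 3 lower with a median of 0.44 in knockout over parental. In FH-WT over knockout 10 of those 22 genes were lower and none higher. The miR-19 list had 8 of 17 higher and 1 lower, with a median of 0.30 in FH-WT and 0.42 in knockout, both over parental. The miR-200 list had 8 of 18 higher and none lower, with medians of 0.07 and 0.44. Counts were smaller or went both ways for miR-29 (7 of 17 higher, 2 lower), miR-34 (7 of 17 higher, 5 lower), miR-21 (6 of 21 higher, 4 lower), let-7 (5 of 22 higher, 4 lower) and miR-15/16 (7 of 18 higher, 8 lower). Over all tested genes 18.3% were higher and 16.1% lower, and the count of every gene list, above and below, reads against that.

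CDKN1A, the p21 inhibitor of cyclin-dependent kinases and a miR-17 target, had 251 CPM in FH-WT, 348 CPM in knockout and 84.6 CPM in parental cells, a log2 fold change of 1.57 ± 0.11 in FH-WT over parental (FDR 1.29e-43). It lay below the knockout level by call (-0.47) and far above parental. F3, tissue factor, showed the same order with 82.1, 105 and 43.3 CPM in FH-WT, knockout and parental cells (0.92 ± 0.08, FDR 1.54e-26). TP53INP1, a p53-induced gene on the miR-17 and miR-19 lists, had 53.2, 87.9 and 24.5 CPM in the same order of lines (1.12 ± 0.11, FDR 2.15e-22), and BCL2L11, the pro-apoptotic BIM, rose by 0.69 ± 0.11 (FDR 2.31e-08). For each of these 4 genes FH-WT stood between the 2 other lines.

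Among let-7 targets the architectural chromatin protein HMGA2 rose by 0.45 ± 0.08 in FH-WT, beside 0.93 in knockout over parental, and FH-WT lay below knockout by 0.49. CCND1, cyclin D1, which is on 6 of the lists, had 575 CPM in FH-WT, 689 CPM in knockout and 370 CPM in parental cells (0.64 ± 0.09, FDR 5.07e-11). MYC, another let-7 target, fell by 0.56 ± 0.12 in FH-WT and by 0.60 in knockout. On the miR-200 list, ZEB1 had 35.6 CPM in FH-WT and 32.1 CPM in knockout, against 8.03 CPM in parental cells (2.15 ± 0.10, FDR 1.76e-103), and FH-WT over knockout was 0.15 and not called. The actin linker MSN (0.77 ± 0.09) and the LIM protein FHL1 (0.75 ± 0.14) rose too, and neither was called in FH-WT over knockout (-0.01 and -0.08). The miR-29 targets LOXL4 and LOXL2, lysyl oxidases that crosslink collagen, rose by 2.01 ± 0.17 and 0.97 ± 0.14, and so did LAMC1, a laminin chain on the same list, by 0.71 ± 0.09 (FDR 2.68e-14). LOXL4 lay well below its knockout level, at 5.02 CPM in FH-WT against 10.9 CPM in knockout cells.

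Across all 11064 protein-coding genes with a usable 3′ UTR and at least 1 log2 CPM, genes with an 8mer match had slightly higher medians than genes with no seed match. For miR-17 the median log2 fold change of FH-WT over parental was 0.05 over 643 genes with a match and -0.02 over genes without, against 0.15 and -0.04 in knockout over parental. For miR-200 it was 0.08 over 606 genes with a match and -0.01 without, against 0.13 and -0.03 in knockout over parental. The other 6 families gave medians with a match between 0.02 and 0.06 in FH-WT over parental. UTR length moved with this measure: the median UTR was 3298 bases among miR-17 matches and 991.5 bases without, and the medians of FH-WT over parental were -0.04, -0.00068 and 0.04 for the shortest, middle and longest UTR groups. The part of UTR length in the seed medians was not tested.

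Epithelial genes were lower by median in FH-WT than in parental cells. Against the knockout 7 of 33 were called lower, among them EHF, which was not called against parental. Of 33 measured epithelial genes, 19 fell, KLF5 rose and 13 were not called, with a median log2 fold change of -0.46, beside 16 lower and 2 higher in knockout over parental. GRHL2, a transcription factor that maintains epithelial identity, had a fitted 3.56 CPM in FH-WT and 4.98 CPM in knockout, against 51.8 CPM in parental cells (-3.86 ± 0.13, FDR 4.63e-184). CDH1, E-cadherin, had 15.8 CPM in FH-WT, 25 CPM in knockout and 49.1 CPM in parental cells (-1.64 ± 0.09, FDR 6.26e-68). The test of FH-WT over knockout gave -0.67 for CDH1 (FDR 6.9e-10), so the gene lay further from parental with AGO2 restored than without it.

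MAL2, a membrane protein of apical transport, showed the same order, with 44.2 CPM in FH-WT, 89.9 CPM in knockout and 352 CPM in parental cells (-2.99 ± 0.10, FDR 3.88e-211). The clathrin adaptor AP1M2 fell by 1.90 ± 0.09 and ESRP1, a splicing regulator of epithelial exons, by 1.10 ± 0.10, each called at the same side in knockout over parental and not called in FH-WT over knockout. GALNT3, an enzyme that starts mucin-type O-glycans, had 1.51 CPM in FH-WT, 2.92 CPM in knockout and 17.5 CPM in parental cells (-3.53 ± 0.17). In bulk RNA fewer cells of a type and less RNA per cell cannot be told apart, which holds for every group here. All 5 called markers of colorectal epithelium fell in FH-WT (CDH1, KRT18, KRT8, EPCAM and MYB), out of 7 measured and 15 listed, and CDX2 (0.12) and KRT19 (-0.19) were not called. Their summed fitted level was 2028 CPM in FH-WT, 2313 CPM in knockout and 2850 CPM in parental cells, and the part of these markers in the results was not tested.

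Mesenchymal genes went both ways. Of 12 measured, 6 rose, 2 fell and 4 were not called, with a median of 0.45. VIM, the intermediate filament vimentin, had 14.9 CPM in FH-WT, 13.9 CPM in knockout and 2.40 CPM in parental cells (2.63 ± 0.17, FDR 8.86e-49). TWIST1, a mesenchymal transcription factor on the left block of chromosome 7, was near 0 in FH-WT and knockout and at a fitted 3.14 CPM in parental cells, so that its deposited log2 fold change of -8.97 has no fixed size. S100A4, a calcium-binding protein, fell by 1.30. FN1 (-0.07) and CD44 (-0.08) were not called. Fibroblast markers were measured for 4 of 14 genes (2 higher, 1 lower), with a summed level of 18.9 CPM in FH-WT and 29.4 CPM in parental cells; endothelial markers for 1 of 11 and blood markers for none of 15.

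Among protein-coding genes with a mean of at least 1 log2 CPM the largest rise was that of NRP1, the neuropilin that serves as a coreceptor for class 3 semaphorins and VEGF, at chr10:33177492-33336262. Its fitted level was 221 CPM in FH-WT and 255 CPM in knockout, against 5.80 CPM in parental cells, a log2 fold change of 5.25 ± 0.10 whose FDR the table lists as 0. Of 25 measured neuropilin, plexin, semaphorin and VEGF genes, 12 rose, VEGFA fell and 12 were not called, with a median of 0.52. SEMA3C had 113 CPM in FH-WT, 139 CPM in knockout and 20.9 CPM in parental cells (2.44 ± 0.08, FDR 6.01e-183). SEMA3E rose by 1.92 ± 0.16 and SEMA3D by 1.21 ± 0.16. The 4 genes of the list on chromosome 7 are SEMA3A, SEMA3C, SEMA3D and SEMA3E, neighbouring ligands that all lie in the right block, and all 4 exceeded its median of 0.51. NRP2, the other neuropilin, rose by 1.21 ± 0.21.

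SEMA3A differed from its neighbours in the knockout. It had 20.8 CPM in FH-WT, 13.3 CPM in knockout and 12.8 CPM in parental cells. The log2 fold change was 0.70 in FH-WT over parental and 0.65 in FH-WT over knockout, both called, beside 0.05 in knockout over parental, which was not.

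**Figure D3:**
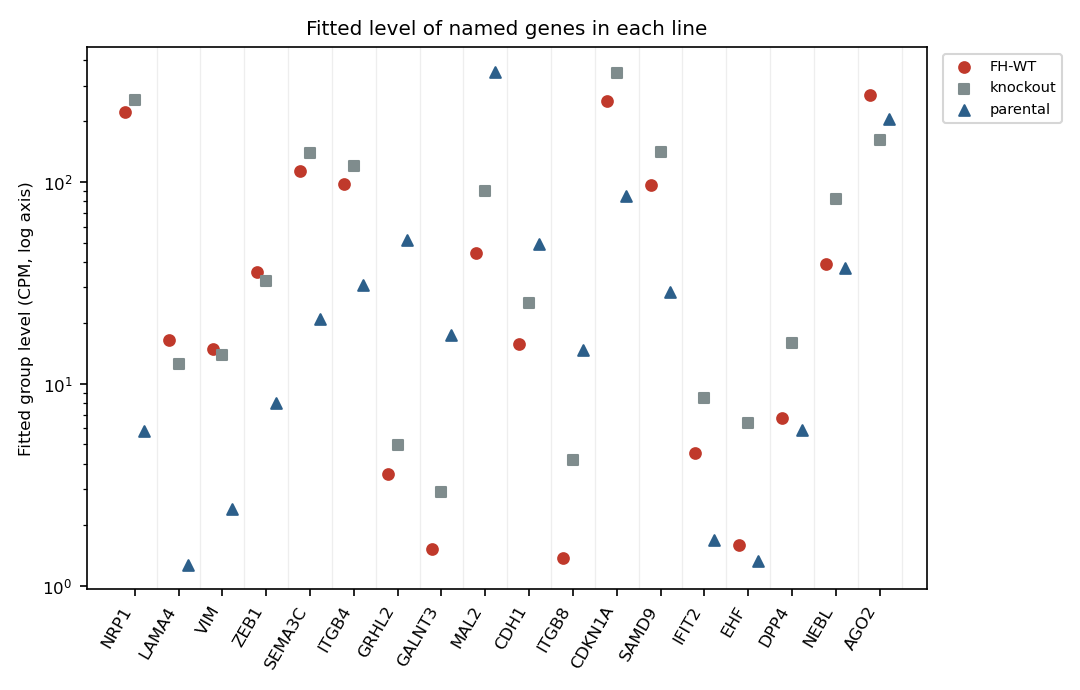
Fitted group level in CPM (log axis) of 18 named genes in FH-WT (red circles), knockout (grey squares) and parental cells (blue triangles); the levels carry no error bars because values per library were not analysed. NRP1 stands at 221 CPM in FH-WT and 255 CPM in knockout over 5.80 CPM in parental cells, MAL2 and CDH1 are lowest in FH-WT, and NEBL and DPP4 in FH-WT lie next to parental.

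Matrix and adhesion genes rose more often than they fell. Of 37 measured collagens, laminins and matrix crosslinkers, 15 rose and 5 fell, with a median of 0.22, beside 22 higher and 2 lower in knockout over parental. LAMA4, a laminin chain of vascular and muscle basement membranes, had 16.5 CPM in FH-WT, 12.6 CPM in knockout and 1.27 CPM in parental cells (3.70 ± 0.14, FDR 9.13e-146). The basement membrane collagens COL4A6 and COL4A5 rose by 2.50 ± 0.22 and 1.23, while COL4A3 and COL4A4 each fell by 0.68. LAMB1, on the right block of chromosome 7, rose by 1.51 ± 0.08. COL17A1, a hemidesmosomal collagen, had 6.79 CPM in FH-WT, 14.4 CPM in knockout and 1.41 CPM in parental cells. For COL17A1 and LOXL4 the restored line was called lower than knockout by about 1.1 on the log2 scale and stayed above parental.

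Among 13 measured integrin subunits 5 rose and 3 fell. ITGB4, the hemidesmosome subunit, rose to 97.8 CPM in FH-WT and 120 CPM in knockout, against 30.9 CPM in parental cells (1.66 ± 0.17, FDR 4.53e-21), and ITGA2, ITGA3, ITGB1 and ITGA6 rose by 0.84, 0.77, 0.61 and 0.35. ITGB8, a subunit known for releasing latent TGF-beta and a gene of the left block of chromosome 7, had 1.36 CPM in FH-WT, 4.17 CPM in knockout and 14.7 CPM in parental cells (-3.43 ± 0.18, FDR 9.33e-75). Desmosome and plakin genes split evenly, with 3 of 12 higher and 3 lower. DSC3, a desmosomal cadherin, rose by 0.85 ± 0.11, and PKP3, a plakophilin, fell by 1.18 ± 0.24.

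Several of the steepest falls were deeper in FH-WT than in knockout. GRIN2B, an NMDA receptor subunit, had 3.67 CPM in FH-WT, 8.92 CPM in knockout and 32.9 CPM in parental cells (-3.16 ± 0.15). CELF2, an RNA-binding splicing factor, had 2.07, 4.95 and 11.4 CPM in the same order (-2.46 ± 0.16), and MACC1, a regulator of MET on the left block of chromosome 7, 6.12, 12.1 and 32.3 CPM (-2.40 ± 0.13). In FH-WT over knockout these 3 genes were called at -1.28, -1.26 and -0.99, and so were ITGB8 at -1.62 and MAL2 at -1.02. CEMIP, a hyaluronan-degrading protein, fell by 3.05 ± 0.18 and was also called lower than knockout (-0.66). CSTA, the protease inhibitor cystatin A, went the other way, with 1.53 CPM in FH-WT, 0.513 CPM in knockout and 7.11 CPM in parental cells.

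Other steep falls were alike in both derived lines. ATP2C2, a calcium pump of the secretory pathway, fell by 2.59 ± 0.16, ANK3, the membrane adaptor ankyrin-G, by 2.39 ± 0.13, ATP8B1, a phospholipid flippase, by 2.32 ± 0.10, and the zinc finger gene ZNF550 by 2.28 ± 0.19. None of these 4 was called in FH-WT over knockout. ETV1, an ETS transcription factor at chr7:13891228-13991425, was near 0 in FH-WT (0.0988 CPM) and knockout (0.0696 CPM) and at 44.9 CPM in parental cells. Its deposited log2 fold change of -8.83 rests on a level near 0 and has no fixed size. Among the rises, NAV3, a microtubule-binding protein of neurons, had 64.8 CPM in FH-WT and 62.6 CPM in knockout, against 10.2 CPM in parental cells (2.67 ± 0.11), and MGLL, a monoacylglycerol lipase, rose by 2.66 ± 0.22. CPA4, a carboxypeptidase on the right block of chromosome 7, had 20.1 CPM in FH-WT, 58.9 CPM in knockout and 3.53 CPM in parental cells. It was called lower than knockout by 1.55 on the log2 scale and was still called higher than parental by 2.51 ± 0.13.

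Signalling genes showed more rises than falls in most lists. Of 20 MAPK feedback genes 10 rose and 4 fell, with a median of 0.39. DUSP4, a nuclear MAP kinase phosphatase, rose by 0.83 ± 0.07 (FDR 1.03e-28), while DUSP6, the cytoplasmic ERK phosphatase, fell by 0.71 ± 0.08 (FDR 8.35e-19), and the SPRED and SPRY inhibitors SPRED1, SPRED2, SPRED3, SPRY2 and SPRY4 rose by 0.40 to 1.64. Of 21 immediate early genes 10 rose and MYC fell, with a median of 0.53. JUN had 25.5 CPM in FH-WT, 28.8 CPM in knockout and 9.79 CPM in parental cells (1.38 ± 0.16, FDR 2.04e-15), and FOSL1, its AP-1 partner, rose by 1.52 ± 0.24. FOS (0.22) and JUNB (-0.21) were not called.

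Of 17 measured YAP targets 11 rose and AJUBA fell, with a median of 0.40. NT5E, the ecto-nucleotidase CD73, had 159 CPM in FH-WT, 124 CPM in knockout and 46.8 CPM in parental cells (1.77 ± 0.07, FDR 5.72e-123), and FH-WT over knockout was called at 0.36. Receptor tyrosine kinases went both ways, with 9 of 27 higher and 8 lower. MET, the HGF receptor on the right block of chromosome 7, rose by 0.98 ± 0.08 and AXL by 0.67 ± 0.09, while EPHA4 fell by 0.68 ± 0.12 and FGFR2 by 0.48. Of 30 TGF-beta genes 12 rose and 2 fell. The ligands led: TGFB2 rose by 1.73 ± 0.27, BMP2 by 1.72 ± 0.25 and TGFB1 by 1.25 ± 0.20, and TGFB1 was also called higher than knockout (0.58). The receptors TGFBR1 and BMPR1A fell by 0.40 and 0.35.

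WNT targets split, with 5 of 14 higher and 5 lower. DKK1, a secreted WNT antagonist, had 437 CPM in FH-WT, 282 CPM in knockout and 254 CPM in parental cells (0.78 ± 0.11, FDR 8.18e-11), and it was called in FH-WT over knockout and not in knockout over parental. AXIN2 and RNF43, negative feedback genes of the pathway, fell by 0.56 and 0.46. Of 19 NF-kB targets 6 rose and 2 fell, but of the rises only the chemokine CXCL8 exceeded 0.5 (0.89, at 0.788 CPM in FH-WT and 0.426 CPM in parental cells), and none of the list's 6 rises was called against a minimum change of 1.2-fold. BIRC3, an inhibitor of apoptosis, had 8.87 CPM in FH-WT, 18.0 CPM in knockout and 6.98 CPM in parental cells.

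Targets of p53 were raised as a list, and replication genes lowered, each less far from parental than in knockout by median. Of 31 measured p53 targets 22 rose, none fell and 9 were not called, with a median of 0.40, beside 23 higher and a median of 0.65 in knockout over parental. FH-WT over knockout had 11 of them lower and none higher. Besides CDKN1A, the death receptor FAS rose to 34.8 CPM in FH-WT and 43.0 CPM in knockout, against 18.1 CPM in parental cells (0.94 ± 0.10), and BTG2, an antiproliferative deadenylase cofactor, to 58.4 and 78.1 CPM, against 31.5 CPM. MDM2, which degrades p53, rose by 0.58, and the repair gene DDB2 (-0.06) was not called. Of the 22 rises 12 were called against a minimum change of 1.2-fold.

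Of 34 E2F-driven cell cycle genes 22 fell and CCNE1, cyclin E1, rose, with a median of -0.32, beside 30 lower and a median of -0.55 in knockout over parental. FH-WT over knockout had 13 of them higher and none lower. The replication licensing genes CDC6 and MCM6 fell by 0.51 ± 0.07 and 0.54 ± 0.07, and GINS2 by 0.44 ± 0.07. CDC6 had 192 CPM in FH-WT, 170 CPM in knockout and 274 CPM in parental cells. Of the 22 falls 5 were called against a minimum change of 1.2-fold. Replication-dependent histone genes fell in 13 of 17, with a median of -0.66 and none higher. H4C8 had 50.7 CPM in FH-WT, 36.9 CPM in knockout and 83.2 CPM in parental cells (-0.71 ± 0.10). Near-identical histone copies can share reads, so single histone genes are uncertain.

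Interferon-stimulated genes rose in 11 of 22 measured cases, and 12 of the 22 were called lower than in knockout. Besides the 11 that rose, 1 fell and 10 were not called, with a median of 0.44, beside 16 higher and a median of 0.71 in knockout over parental. None was called higher than in knockout. SAMD9, an antiviral gene on the right block of chromosome 7, had 96.9 CPM in FH-WT, 141 CPM in knockout and 28.6 CPM in parental cells (1.76 ± 0.10, FDR 1.28e-67). IFIT3 and IFIT2, antiviral proteins that act against foreign RNA, rose by 1.69 ± 0.17 and 1.42 ± 0.17, at 4.25 and 4.52 CPM in FH-WT, 5.50 and 8.52 CPM in knockout, and 1.32 and 1.69 CPM in parental cells. ISG15 (-0.49), IFIH1 (-0.16) and RIGI (-0.13) were not called; the first is a ubiquitin-like effector and the others are sensors of foreign RNA. IFIH1 and RIGI were called lower than in knockout (-0.85 and -0.50). Of 7 measured antigen presentation genes 5 rose, among them the peptidase ERAP2 (1.21 ± 0.15) and the class I transactivator NLRC5 (0.95 ± 0.14), while B2M (-0.07) was not called.

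Promoters of these groups were searched for the letters of their known motifs on both strands, in RefSeq windows of 250 bases before to 50 after the start (GRCh38.p14). The interferon response element GAAANNGAAA was found in 11 of 17 list promoters (64.7%), against 2.51% of the 10188 promoters of tested genes and 3.65% of all 27305. It was present at IFIT3 and SAMD9, which rose, and also at IFIT5, which was not called (-0.14, FDR 0.338), and these windows are shown for that contrast. Of the 11 list genes with a match 6 rose and 5 were not called, and of the 6 without a match 3 rose and 3 were not called. The E2F letters TTTNNCGC were found in 18 of 30 list promoters (60%), against 10.7% of tested and 6.90% of all promoters, and the ATF4 letters TGATGNAA in 6 of 30 (20%), against 1.66% and 3.67%. Matches may overlap each other, as at MCM6, where each stretch is read on both strands. A match is a description of the sequence and not a bound site. MCM6 and ASNS are shown as genes with a match that fell. Among list genes with the E2F letters 12 of 18 fell, against 7 of 12 without them, and for the ATF4 letters 3 of 6 with a match and 10 of 24 without fell. Matches are in capitals: IFIT3 is chr10:89327747-89328046 (plus strand), SAMD9 chr7:93117930-93118229 (minus strand), IFIT5 chr10:89414318-89414617 (plus strand), MCM6 chr2:135876394-135876693 (minus strand) and ASNS chr7:97872359-97872658 (minus strand).
IFIT3 promoter: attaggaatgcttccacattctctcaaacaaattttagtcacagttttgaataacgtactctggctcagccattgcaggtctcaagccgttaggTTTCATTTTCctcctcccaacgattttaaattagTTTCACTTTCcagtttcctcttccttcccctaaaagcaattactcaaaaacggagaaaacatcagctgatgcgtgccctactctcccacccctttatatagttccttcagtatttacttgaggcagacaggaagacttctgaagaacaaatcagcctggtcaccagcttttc
SAMD9 promoter: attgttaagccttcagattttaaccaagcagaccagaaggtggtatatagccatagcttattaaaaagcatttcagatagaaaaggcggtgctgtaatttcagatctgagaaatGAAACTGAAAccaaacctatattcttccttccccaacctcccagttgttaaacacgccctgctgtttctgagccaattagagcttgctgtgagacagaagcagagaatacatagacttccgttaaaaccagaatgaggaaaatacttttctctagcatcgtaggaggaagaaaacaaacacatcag
IFIT5 promoter: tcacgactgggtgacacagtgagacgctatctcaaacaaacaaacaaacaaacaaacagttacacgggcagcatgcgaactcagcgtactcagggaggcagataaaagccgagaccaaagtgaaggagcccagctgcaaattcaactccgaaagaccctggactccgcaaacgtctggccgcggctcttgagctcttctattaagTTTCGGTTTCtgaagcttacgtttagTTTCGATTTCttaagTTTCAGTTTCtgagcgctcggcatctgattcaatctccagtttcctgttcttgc
MCM6 promoter: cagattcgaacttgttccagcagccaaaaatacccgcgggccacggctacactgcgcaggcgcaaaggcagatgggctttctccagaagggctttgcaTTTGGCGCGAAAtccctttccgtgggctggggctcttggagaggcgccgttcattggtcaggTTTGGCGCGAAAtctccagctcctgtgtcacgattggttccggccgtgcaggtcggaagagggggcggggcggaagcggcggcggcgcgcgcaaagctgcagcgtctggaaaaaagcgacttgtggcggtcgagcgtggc
ASNS promoter: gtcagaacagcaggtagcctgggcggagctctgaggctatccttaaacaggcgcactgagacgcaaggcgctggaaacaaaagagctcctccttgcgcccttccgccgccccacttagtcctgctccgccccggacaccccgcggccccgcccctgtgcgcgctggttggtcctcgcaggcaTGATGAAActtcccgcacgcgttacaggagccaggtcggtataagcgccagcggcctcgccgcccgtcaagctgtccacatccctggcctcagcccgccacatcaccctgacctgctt

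On the list of ATF4 targets and unfolded protein response genes, 16 of 34 fell, 5 rose and 13 were not called in FH-WT, with a median of -0.18, beside 19 lower and a median of -0.40 in knockout over parental. FH-WT over knockout had 13 of them higher and 1 lower. PHGDH, the first enzyme of serine synthesis, had 134 CPM in FH-WT, 90.3 CPM in knockout and 248 CPM in parental cells (-0.89 ± 0.07, FDR 6.53e-35). PSAT1, the next enzyme of that pathway, had 151, 113 and 259 CPM in the same order, and PCK2, the mitochondrial PEP carboxykinase, 23.5, 14.7 and 42.4 CPM. ASNS, asparagine synthetase, had 284 CPM in FH-WT, 166 CPM in knockout and 404 CPM in parental cells (-0.51 ± 0.08) and fell although it lies in the right block of chromosome 7. Of the members that rose, CTH (0.28) makes cysteine, and PDIA4, a chaperone of the endoplasmic reticulum on the same block of chromosome 7, rose by 0.70 ± 0.07, and ATF3, DNAJB9 (also on that block) and DDIT3 by 0.54, 0.49 and 0.32.

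Aminoacyl-tRNA synthetases, which charge tRNAs, fell in 10 of 19 cases and rose in none, with a median of -0.24 in FH-WT and -0.44 in knockout, both over parental. GARS1, on the left block of chromosome 7, fell by 1.10 ± 0.09, and it alone of the 10 was called against a minimum change of 1.2-fold. Of 32 cholesterol and fatty acid genes 13 fell and FASN, fatty acid synthase, rose (0.73), with a median of -0.25. SQLE, squalene epoxidase, had 65.5 CPM in FH-WT, 55.8 CPM in knockout and 134 CPM in parental cells (-1.03 ± 0.07, FDR 9.38e-41). Cytosolic ribosomal protein genes had 18 of 76 lower and 1 higher, with a median of -0.15, against 16.1% lower and 18.3% higher over all genes. The differences were small, and 6 were called lower under the F distribution.

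Hypoxia and glycolysis genes went both ways, with 7 of 33 higher and 6 lower, a share near that of all genes. NDRG1, a stress-induced gene, had 92.3 CPM in FH-WT, 125 CPM in knockout and 38.9 CPM in parental cells (1.25 ± 0.11). The glucose transporter SLC2A1 had 115 CPM in FH-WT, 170 CPM in knockout and 222 CPM in parental cells (-0.96 ± 0.10), and SLC2A3 fell by 1.03. LDHA (0.13), PGK1 (-0.15) and GAPDH (-0.09) were not called.

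**Figure D4:**
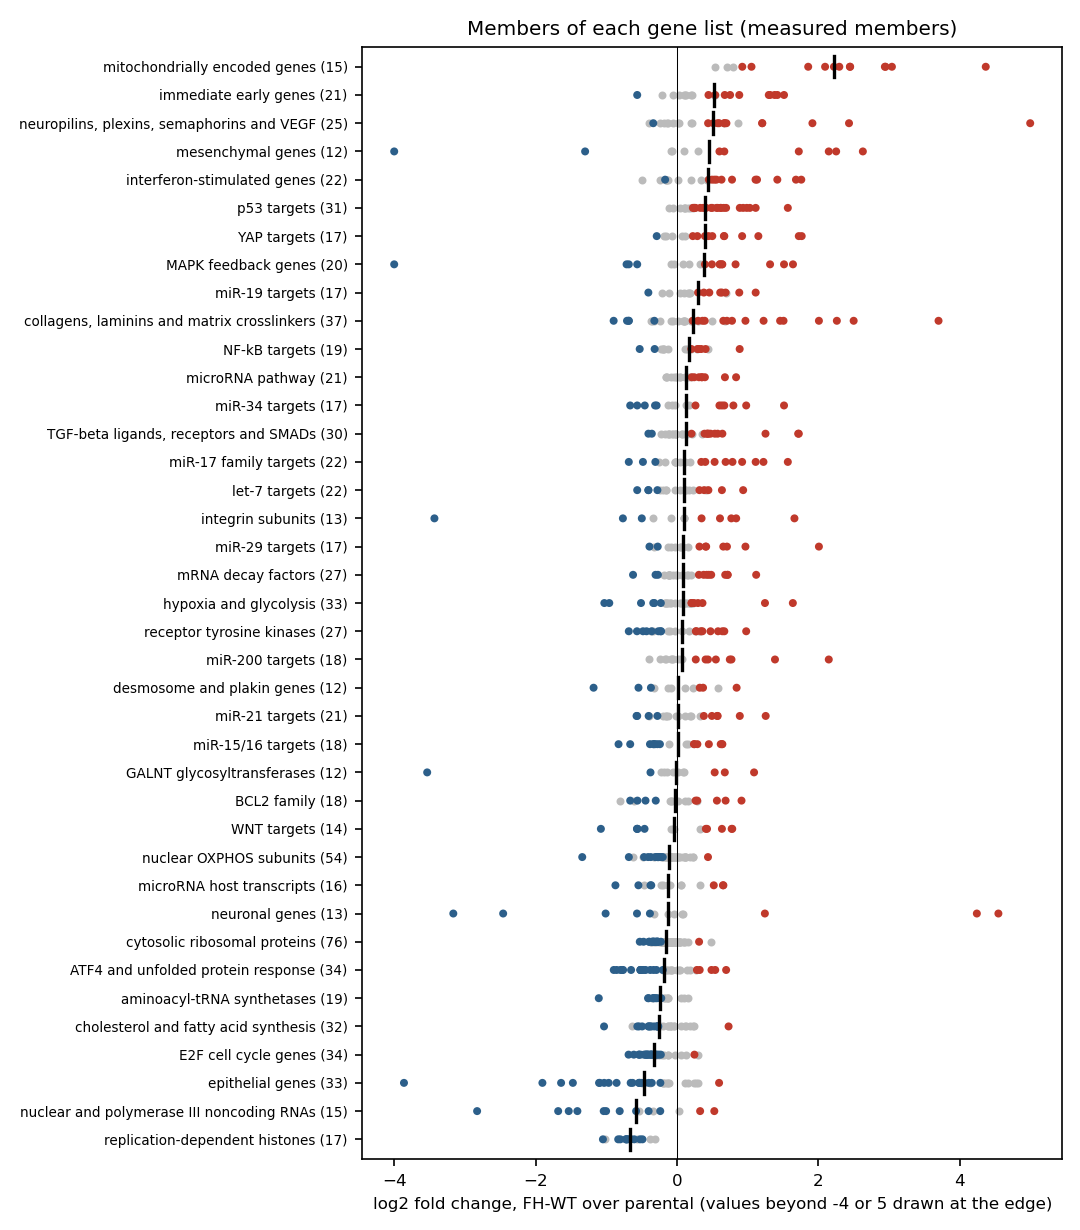
Log2 fold change of FH-WT over parental for the measured members of each gene list with at least 10 of them (number in brackets); red and blue points are called higher and lower, grey points not called, black bars mark medians, and values beyond -4 or 5 are drawn at the edge. The mitochondrially encoded genes have a median of 2.22, p53 targets 0.40, E2F cell cycle genes -0.32, epithelial genes -0.46 and histones -0.66.

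Some genes called in knockout over parental were called the other way in FH-WT over knockout and not called in FH-WT over parental. The missing call does not show that they equal parental. The rule that picks them asks for a call in knockout over parental, the opposite call in FH-WT over knockout and none in FH-WT over parental. Among 13260 genes with a mean of at least 1 log2 CPM, 592 met it, 346 of them higher and 246 lower in knockout. The rule fixes this pattern, and the comparisons share libraries, so the values describe it and test nothing. EHF, an epithelial ETS factor, had 1.59 CPM in FH-WT, 6.38 CPM in knockout and 1.32 CPM in parental cells. The peptidase DPP4 had 6.73, 16 and 5.88 CPM in the same order, and NEBL, the actin-binding nebulette, 39.0, 82.2 and 37.5 CPM. Their log2 fold changes of FH-WT over parental were 0.27 ± 0.22, 0.19 ± 0.13 and 0.06 ± 0.09.

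The selenium carrier SELENOP had 2.94 CPM in FH-WT, 6.77 CPM in knockout and 2.80 CPM in parental cells, and the glucose transporter SLC2A12 had 4.82, 9.39 and 3.87 CPM in that order. COL13A1, a transmembrane collagen, the guidance ligand SLIT2, the transcription factor STAT4, the phosphodiesterase PDE11A, TMEM132B and ZMAT1 complete the genes that were higher in knockout among the 12 with the largest knockout change. Their values in FH-WT over parental were between 0.18 and 0.61, each not called, and those of TMEM132B (0.61, FDR 0.0536) and SLIT2 (0.50, FDR 0.0517) lay close to the threshold. MT-ND6, the complex I subunit on the light strand of mitochondrial DNA, was the exception in direction, with -1.13 in knockout and 0.79 in FH-WT, both over parental.

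**Figure D5:**
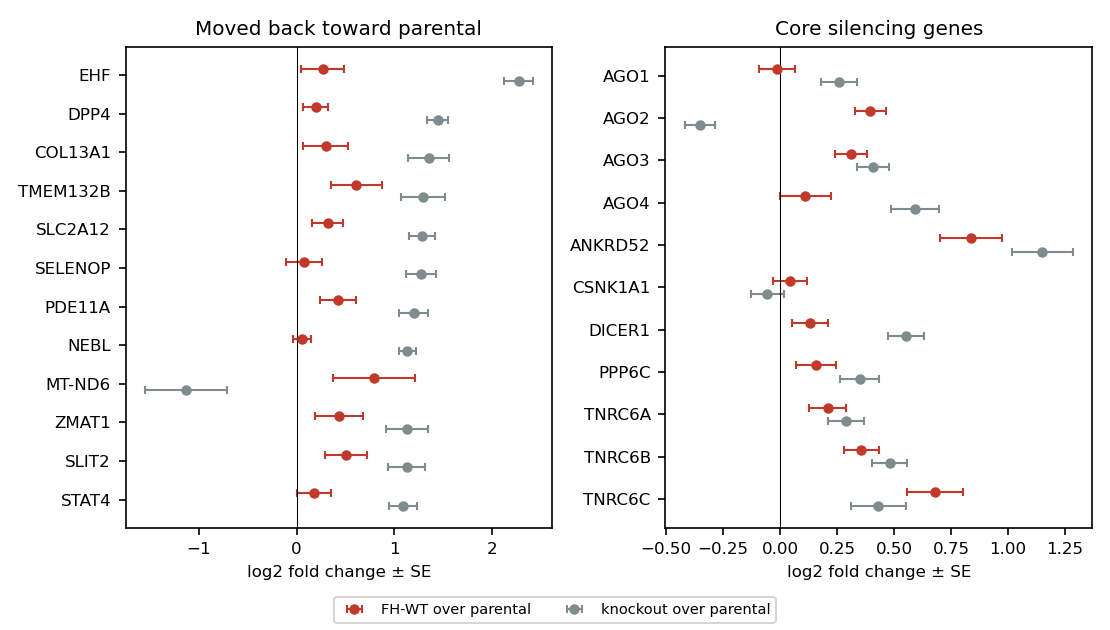
Left, log2 fold change ± SE of 12 genes picked by a rule that fixes the direction of FH-WT against knockout. They had the largest knockout change among genes with a mean of at least 1 log2 CPM that met the rule. It asked for a call in knockout over parental, the opposite call in FH-WT over knockout and no call in FH-WT over parental. Right, the same values for 11 core silencing genes. Red points are FH-WT over parental and grey points knockout over parental. NEBL stands at 0.06 in FH-WT and 1.13 in knockout, and AGO2 at 0.40 in FH-WT and -0.35 in knockout.

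A second rule picked genes called in FH-WT over parental and the same way over knockout, with no call in knockout over parental. Among 13260 genes with a mean of at least 1 log2 CPM, 195 met this rule, 88 higher and 107 lower. FH-5xA was not part of the rule. It too fixes its pattern, and the comparisons share libraries, so the set is a description only. The missing call does not show that knockout equals parental. The lincRNA ENSG00000281383, described last, had the largest change in this set, followed by MT-RNR2 of the mitochondrial genome. Of 15 measured mitochondrially encoded rRNA and protein genes 12 rose, none fell and 3 were not called, with a median log2 fold change of 2.22, beside 1 higher and 1 lower in knockout over parental. MT-RNR2, the large mitochondrial rRNA, rose by 4.37 ± 0.79 (FDR 4.19e-07), MT-ND4 by 3.04 ± 0.64, MT-ND5 by 2.95 ± 0.65 and MT-ND2 by 2.94 ± 0.70, all subunits of complex I. MT-CO1 rose by 0.93, and MT-CO2 (0.72) and MT-CO3 (0.54), of cytochrome oxidase, were not called.

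These RNAs were measured less evenly than others. The median SE of the 20 genes of the mitochondrial genome was 0.50, against 0.12 for the 14667 other genes above the lowest mean of these 20 (0.05 log2 CPM) and 0.09 for all genes from a mean of 6 log2 CPM upward. The mitochondrial genome took 3.91% of the summed fitted CPM in FH-WT, 1.99% in FH-5xA, 1.29% in knockout and 0.870% in parental cells. MT-RNR2 alone took 1.88% in FH-WT, 0.819% in FH-5xA, 0.213% in knockout and 0.0930% in parental cells. The libraries were rRNA-depleted, and the part of depletion in the level of this rRNA was not tested. Of 54 nuclear genes for the same respiratory complexes 15 fell and 1 rose, with a median of -0.11. NDUFA4, on the left block of chromosome 7, fell by 1.34 ± 0.14. The part of this wider spread in the mitochondrial calls was not tested.

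Outside the mitochondrion, the lincRNA ENSG00000281383 at chr21:8254592-8255514 had 155 CPM in FH-WT, 0.215 CPM in knockout and 0.126 CPM in parental cells, so that its deposited log2 fold change of 10.26 ± 1.39 rests on levels near 0. MTATP6P1 and MTND2P28, nuclear pseudogenes near-identical to mitochondrial genes, rose by 3.18 ± 0.77 and 2.39 ± 0.64 and can hold reads of their mitochondrial copies. ATN1, the transcriptional corepressor atrophin-1, had 32.5 CPM in FH-WT, 12.6 CPM in knockout and 7.73 CPM in parental cells (2.07 ± 0.37, FDR 2.51e-07). RNY1, a small RNA of Ro particles, fell by 2.83 ± 0.58 to 1.24 CPM in FH-WT, against 8.81 CPM in parental cells, and it lies in the right block of chromosome 7.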

How the data were processed

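RNA-seq libraries of 4 HCT116 lines, 3 per line and 12 in all, were compared by the authors, who deposited 5 comparison tables, of which 4 were used. Reads had been processed with edgeR 3.8.6, featureCounts 1.4.6, TopHat2 2.0.12 and Cufflinks 2.2.1, with builds hg38 and GRCh38 named, per the submitters' processing notes. The tables hold, per the file headers, for each gene a log2 fold change, a mean in log2 CPM, a test score (the likelihood ratio) with its p-value, and an FDR, all deposited by the authors. No source used here gives the annotation, count filter, normalization or strand setting, which leaves antisense and overlapping genes uncertain. Values per library and depths were not analysed here, and the planned count tests gave way to the deposited likelihood ratio test. Deposited p-values equalled the chi-square tail with 1 degree of freedom.

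The SE was the absolute log2 fold change divided by the square root of the likelihood ratio. Fitted CPM levels divide each gene's deposited mean between the 4 lines according to the deposited fold changes, taking that mean as the log2 of the average CPM; they are not divided by length and do not compare genes. Identifiers matched GENCODE 29 in 15029 cases and a symbol in 14974. Python 3.11.15, numpy 2.4.6, pandas 2.3.3, scipy 1.17.1 and matplotlib 3.10.9 were used, and the scripts were tested on simulated data. The 3 wells of a line are its replicates.

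Genes named were, by size of change, the top 15 higher and top 15 lower called genes having a mean of at least 1 log2 CPM, the 11 core silencing genes, up to 4 members of each of 41 lists with the smallest p, the 12 largest changes under each of the 2 patterns across lines, and up to 3 rises and 3 falls of each noncoding class. Other list members were named after their values were seen, as further called examples, lone exceptions or uncalled examples. A few list members are not reported here by name. The comparison and lists were chosen with earlier results of these data known. Alternatives were an F distribution with 1 and 8 degrees of freedom, an FDR of 0.01, a minimum change of 1.2-fold, genes of at least 1 log2 CPM, leaving out chromosome 7, centring on the median, bins of 20 Mb and shorter seed matches.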

Additional observations from a re-analysis of the deposited data

How the results depend on the processing

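The alternatives to the test and filters leave the deposited fold changes as they are, so they bear on calls and not on directions, and centring moved fold changes by less than 0.001 on the log2 scale; only lists with at least 5 calls in their more frequent direction were followed, and in that direction alone. The F distribution with 1 and 8 degrees of freedom left 3195 genes called (1763 higher, 1432 lower), and the test against a minimum change of 1.2-fold 1602 (965 higher, 637 lower), with 181 called list genes. Under that minimum change the higher genes numbered 2 in the microRNA pathway, 4 among mRNA decay factors, 2 among let-7, 5 among miR-19, 5 among miR-200, 3 among miR-29 and 4 among miR-34 targets, 12 among p53 targets, 7 among interferon-stimulated genes, 6 in the TGF-beta list, 3 among receptor tyrosine kinases and 6 among YAP targets. The lower genes numbered 2 among miR-15/16 targets, 5 among E2F genes, 5 among histones, 8 in the ATF4 list, 1 among aminoacyl-tRNA synthetases and 3 among neuronal genes. Antigen presentation had 3 higher under the F distribution, 3 at an FDR of 0.01 and 2 with the minimum change, NF-kB targets 1, 1 and 0, hypoxia genes 4, 4 and 2, and the BCL2 family 3, 3 and 2. In the same order of settings ribosomal protein genes had 6, 10 and 1 lower and nuclear OXPHOS genes 7, 9 and 1, and cholesterol genes had 8 lower under the F distribution and 2 with the minimum change. The highest bin median on chromosome 7 was 0.51 with bins of 20 Mb, against 0.73 with 10 Mb. Leaving out low genes, leaving out chromosome 7 and centring kept each count of genes within 1.5 times. Of 204 named genes, 6 were no longer called under the F distribution (TNRC6A, CALR, BIRC3, NFKB2, NFKB1 and RNU6-26P) and 35 against the minimum change. No paired analysis was possible because the tables hold no value per library; for the same reason leaving out each replicate, other normalizations and DESeq2 were not run. Depth is unknown, and the cause of each change was not tested.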

Other observations

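Noncoding classes differed in their calls, by the authors' deposited table of FH-WT over parental. Of 125 small RNA genes 42 were lower and 3 higher (RN7SL3, 0.51, and RNU6-26P, 0.38, among them), with a median log2 fold change of -0.35, against medians near 0 for 456 lincRNAs (80 higher, 50 lower) and 510 antisense genes (80 higher, 48 lower). SNORA53, a small nucleolar RNA, had 13.6 CPM in FH-WT, 36.2 CPM in knockout and 39.2 CPM in parental cells (-1.53 ± 0.17), and was called in FH-WT over knockout and not in knockout over parental. The spliceosomal RNAs RNU5B-1 and RNU4-2 fell by 1.68 and 1.41; their near-identical copies can share reads. In the list of nuclear noncoding RNAs 10 of 15 fell, while the nuclear speckle and paraspeckle RNAs MALAT1 and NEAT1 rose by 0.33 and 0.53. Among long noncoding genes, the antisense gene SCAT8 had 9.97 CPM in FH-WT, 4.93 CPM in knockout and 0.194 CPM in parental cells, and UCA1, a lincRNA of carcinoma cells, had 4.01, 8.86 and 15.2 CPM in the same order (-1.92 in FH-WT over parental). Of 1738 pseudogenes 236 fell and 164 rose, with a median of -0.04. Over all tested genes 18.3% were higher and 16.1% lower. Neither share was exceeded by lincRNAs, antisense genes or pseudogenes.

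Metallothioneins, which bind zinc and copper, stood higher in FH-WT than in knockout and were not called against parental. The 4 measured genes summed to 811 CPM in FH-WT, 332 CPM in knockout and 587 CPM in parental cells, and 3 of the 4 were called in FH-WT over knockout. MT2A had 340 CPM in FH-WT, 121 CPM in knockout and 212 CPM in parental cells, with 0.68 ± 0.31 in FH-WT over parental (FDR 0.0694). Of 12 measured GALNT glycosyltransferases 3 rose and 2 fell: GALNT13, GALNT5 and, on the right block of chromosome 7, GALNT11 rose by 1.09, 0.68 and 0.54, and GALNT12 fell with GALNT3. Of 18 BCL2 family genes 5 rose, with PMAIP1, the pro-apoptotic NOXA, at 0.91 ± 0.12, and 4 fell, with BCL2 itself at -0.66. Of 16 microRNA host transcripts 3 rose (MIR222HG, VMP1 and MIR34AHG, by 0.66, 0.65 and 0.52) and 4 fell. Neuronal genes split, with 3 of 13 higher and 5 lower. The counts of these small lists read against 18.3% higher and 16.1% lower over all tested genes. The retinal gene EYS and the nitric oxide synthase NOS1 had 1.37 and 1.61 CPM in FH-WT, 0.890 and 1.64 CPM in knockout, and 0.0585 and 0.0847 CPM in parental cells. Markers of neural or embryonic kidney cells were measured for 6 of 14 (PAX2 and NES higher, PAX6 lower), with sums of 52.6 CPM in FH-WT and 39.1 CPM in parental cells.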
